A study of Mus musculus with 6 samples.

Results

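Integrins are the cell surface receptors that bind cells to the extracellular matrix, and focal adhesion adaptors are the cytoplasmic proteins that join them to actin filaments and to signalling kinases. The genes described here were chosen by name, with earlier results of these data known. They are a list of 36 mouse symbols: 12 integrin alpha chains, 7 beta chains and 17 adaptors. Of these, 35 had a row among the 22432 genes of the authors' deposited table. Fermt1, the gene of kindlin-1, had no row and was not analysed here. All 35 rows carried an adjusted p-value.

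RNA of male mouse germline stem cells was sequenced after ribosomal RNA depletion. These cells maintain sperm production and were cultured on DR4 mouse embryonic fibroblasts, drug-resistant feeder cells, in serum-containing medium with GDNF and FGF. There were 3 CDH1+/THY1+ samples and 3 CDH1-/THY1+ samples, so all 6 samples were positive for the surface glycoprotein THY1 and the populations differed in the surface adhesion protein CDH1 (E-cadherin). The cultures RP7, RP5 and WT1 gave 1 sample to each population, at passage 6 to 8, from males aged 8 weeks, 19 days and 5 weeks. RP7 and RP5 had the strain label OCT4/GFP; Dox-OCT4, and WT1 had C57BL/6. The labels name no further treatment. Whether feeder fibroblasts were removed before the RNA was taken is not given in the sources used here.

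An integrin is a pair of 1 alpha and 1 beta chain, and the alpha chain largely sets which matrix protein is bound. Talins and kindlins bind the tail of the beta chain and switch the receptor on. The kinase-like scaffold ILK with its partners PINCH and parvin, the focal adhesion kinase FAK with paxillin, p130Cas and SRC, and the actin-binding proteins alpha-actinin, zyxin and VASP then assemble around it. Integrin alpha-6 and beta-1 chains are known surface markers of spermatogonial stem cells, which sit on a laminin-rich basement membrane in the testis.

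The comparison sets CDH1+/THY1+ cells against CDH1-/THY1+ cells. As the authors' deposited table has it, 16 of the 35 genes were higher in CDH1+/THY1+ cells and 2 were lower at an adjusted p under 0.05, and 17 were not called. Among all 19211 genes with an adjusted p-value, 17.1% were called higher and 16.4% lower, 33.5% in all, against 45.7% and 5.71% of the integrin and adaptor genes. The median log2 fold change of the 35 genes was 0.47 in the authors' deposited table, against 0.01 over all genes tested. Calls were more frequent among genes with many reads: where the mean count in the authors' deposited table reached 1000 or more, 20.6% were higher and 25.8% lower, against 10 and 1 of the 18 integrin and adaptor genes at that level. The higher genes included the alpha chains Itgav and Itga5, the talin gene Tln1, the parvin gene Parvb and both alpha-actinin genes. Itga9 and Ptk2, the gene of FAK, were the ones that fell.

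The table holds no value per library. It gives for each gene a mean normalised count over all 6 libraries, a log2 fold change, positive where CDH1+/THY1+ cells are higher, with its standard error, so levels in each sample and the overlap of the populations cannot be shown. A value written with ± is that log2 fold change with the authors' standard error (3 against 3 samples), and an interval is the 95% range it gives. Direction was read from the name of the table: Cdh1 had no row and was not analysed here, so its own level does not check it. In the direction so read, 20 of 20 germ cell markers were lower in CDH1+/THY1+ cells, with a median log2 fold change of -1.70, in the authors' deposited table. That list was chosen with earlier results of these data known and does not check the direction. Had the name been read the wrong way round, every sign given here would be reversed. The depth of each library is unknown. Standard errors in the authors' deposited table did not exceed 0.639 even for genes with very few reads, a mark of fold changes shrunken towards 0. Such shrinkage acts most on genes with few reads, but whether the true change of a given gene is larger cannot be told. In these bulk samples, fewer cells of a type and less RNA per cell cannot be told apart.

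**Figure D1:**
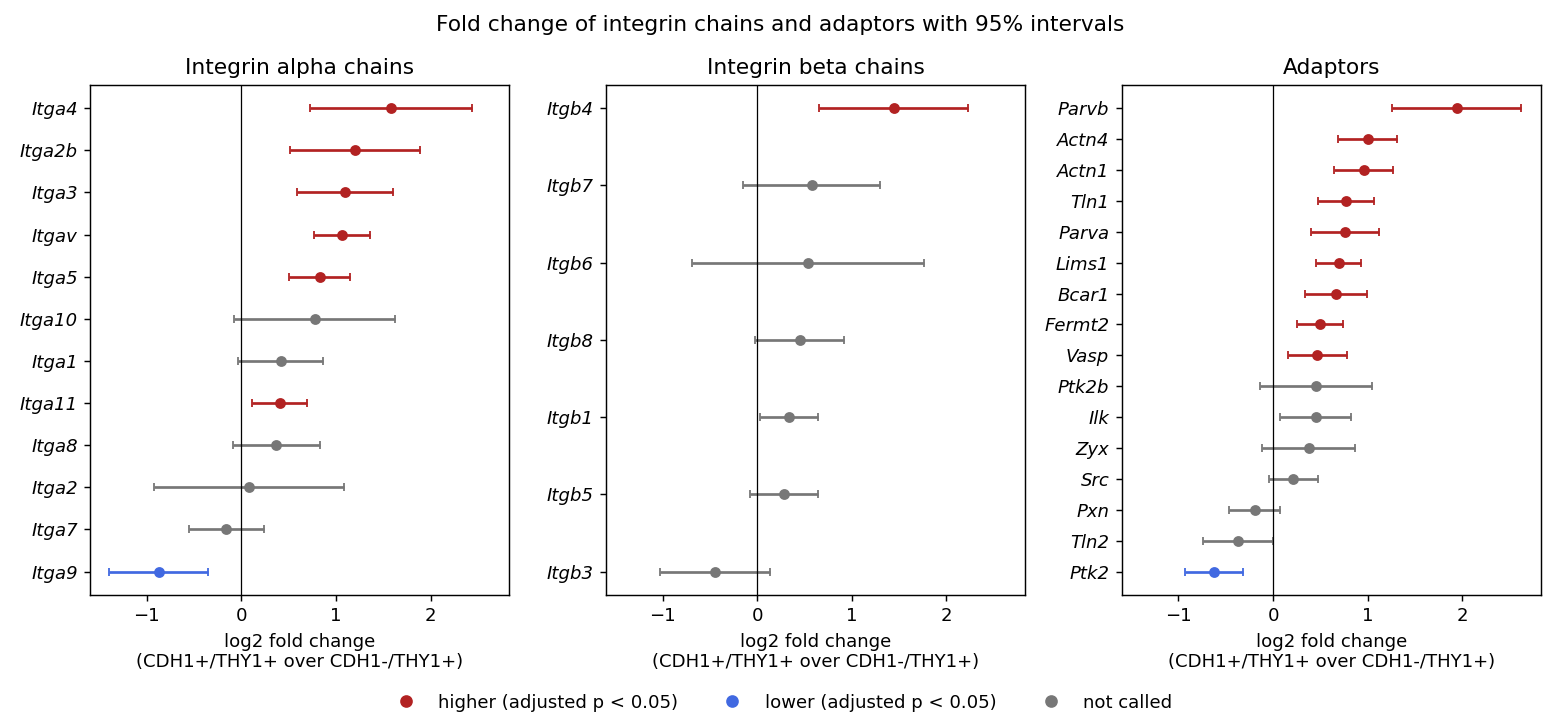
Log2 fold change (x axis, positive where CDH1+/THY1+ cells are higher) of each of the 35 genes in the authors' deposited table, with bars for the 95% interval and colours for the call at an adjusted p under 0.05. In all, 16 genes are called higher and 2, Itga9 and Ptk2, lower; among the beta chains Itgb4 is the 1 gene called.

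Stretches of 250 bases before the transcription start are shown for 4 of the higher genes: the adaptor with the largest change (Parvb), the alpha chain with the smallest adjusted p (Itgav) and the 2 alpha-actinin genes, which rose by nearly the same amount. They are RefSeq sequences of build GRCm38.p6, written 5′ to 3′ on the strand of the gene. Capitals mark matches, on either strand, to the motifs of SP1 (GGGCGG), AP-1 (TGANTCA), TEAD (GGAATG) or the SRF CArG box.
Parvb, chr15:84231793-84232042, plus strand: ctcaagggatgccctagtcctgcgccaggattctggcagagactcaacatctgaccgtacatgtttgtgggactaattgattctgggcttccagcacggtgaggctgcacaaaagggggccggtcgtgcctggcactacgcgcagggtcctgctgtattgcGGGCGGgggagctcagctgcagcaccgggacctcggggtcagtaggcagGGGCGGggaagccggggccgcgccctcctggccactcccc
Itgav, chr2:83724147-83724396, plus strand: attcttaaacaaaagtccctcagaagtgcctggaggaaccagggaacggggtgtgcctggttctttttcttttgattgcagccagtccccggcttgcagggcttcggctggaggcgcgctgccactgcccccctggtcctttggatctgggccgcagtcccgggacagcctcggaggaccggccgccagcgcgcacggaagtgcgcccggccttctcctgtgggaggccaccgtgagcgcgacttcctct
Actn1, chr12:80260364-80260613, minus strand: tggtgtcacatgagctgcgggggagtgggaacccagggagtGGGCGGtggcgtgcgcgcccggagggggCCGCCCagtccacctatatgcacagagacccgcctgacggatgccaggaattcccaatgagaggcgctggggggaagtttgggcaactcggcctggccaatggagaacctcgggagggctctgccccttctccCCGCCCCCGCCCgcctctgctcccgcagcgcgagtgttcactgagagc
Actn4, chr7:28962333-28962582, minus strand: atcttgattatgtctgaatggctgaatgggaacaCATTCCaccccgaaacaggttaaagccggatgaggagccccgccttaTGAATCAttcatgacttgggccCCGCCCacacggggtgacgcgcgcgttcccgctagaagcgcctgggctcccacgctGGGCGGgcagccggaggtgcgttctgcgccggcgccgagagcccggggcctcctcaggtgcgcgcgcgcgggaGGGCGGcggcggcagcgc

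The RefSeq promoter table held 33 entries for 27 of the 35 genes, with a median GC content of 64.0% in these 250 bases against 52.4% over all 32851 promoters. The SP1 motif was in 48.5% of the 33 entries and in 32.7% of all promoters. By gene, 9 of the 14 higher genes with an entry and 5 of the 13 others held it. A gene with several entries was counted if any of them held the motif, so such genes had more chances. A link between the motif and the calls was not tested. The Actn1 stretch holds 4 matches, of which 2 lie side by side, that of Actn4 holds 3 and that of Parvb 2, whereas the Itgav stretch holds none of the 4 motifs. AP-1 was in 6.06% of the entries and 6.75% of all promoters, TEAD in 9.09% and 12.6%, and the CArG box in 6.06% and 1.47%. The CArG matches were 2, in the promoters of Fermt2 and Itgb6. None of the matches overlapped one of another motif in the stretches shown. A match is a run of letters and not a measured binding site.

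Of the 12 integrin alpha chains 6 were called higher and 1 lower in the authors' deposited table, and their median log2 fold change was 0.59. Over all genes tested, 17.1% were higher and 16.4% lower, with a median of 0.01. Itgav on chromosome 2 (83724397 to 83806916 in GRCm38), the vitronectin receptor chain that binds RGD-bearing matrix proteins and latent TGF-beta, had a mean count of 2182 and rose by 1.06 ± 0.15 in the authors' deposited table (2.09-fold, interval 1.70 to 2.58, adjusted p = 1.41e-10 by DESeq2). Itga5 on chromosome 15 (103344286 to 103366763), the fibronectin receptor chain, had a mean count of 1061 and rose 1.77-fold in the authors' deposited table (0.83 ± 0.16, adjusted p = 4.88e-06 by DESeq2). Itga2b, the platelet fibrinogen receptor chain, was higher at 1.20 ± 0.35 in the authors' deposited table, from a mean count of 48.6. Itga8, which binds nephronectin, stood at 0.37 ± 0.24 in the authors' deposited table, without a call by DESeq2 (adjusted p = 0.221). So 3 of the 4 chains that recognise the RGD sequence were called higher, against 17.1% of all genes. Itga2b was not counted with a mean count minimum of 50, and differences between classes of chains were not tested.

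Chains that bind laminin, collagen or cell surface ligands were mixed in their calls, though the 4 collagen-binding chains all lay above 0. Itga3, a laminin receptor chain of epithelial cells, was at 1.09 ± 0.26 in the authors' deposited table (2.13-fold, interval 1.5 to 3.03, adjusted p = 0.000185 by DESeq2). Itga7, the laminin receptor chain of muscle, was at -0.16 ± 0.20 in the authors' deposited table without a call. The standard error of Itga3 ranked above 92.0% of the 200 genes of nearest mean count, and that of Itga7 above 32.0%. Among the 4 collagen-binding chains Itga11, which fibroblasts are known to use, was called higher in the authors' deposited table, at 0.40 ± 0.15 (adjusted p = 0.0228 by DESeq2). Itga1, Itga2 and Itga10, from 0.08 to 0.77 in the authors' deposited table, were not called. Itga2 and Itga10 had few reads, 12.9 and 27.8 by mean count, per the authors' deposited table, and their intervals were wide, 0.526-fold to 2.12-fold for Itga2 and 0.948-fold to 3.08-fold for Itga10. Exons of Gm42957, on the same strand, overlap 33.5% of the Itga10 exons, and what this did to its count was not tested.

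The chains of the third branch of the family, Itga4 and Itga9, went opposite ways. Itga4, a receptor chain for VCAM1 and fibronectin, rose by 1.59 ± 0.44 (adjusted p = 0.00158 by DESeq2), with a mean count of only 42.2, in the authors' deposited table. Itga9 on chromosome 9 (118606690 to 118901003), a receptor chain for tenascin and VCAM1, fell by 0.87 ± 0.27 in the authors' deposited table (1.83-fold lower, adjusted p = 0.00464 by DESeq2) with a mean count of 535. The intervals, 0.73 to 2.44 for Itga4 and -1.40 to -0.35 for Itga9, did not overlap, but the difference between the genes was not tested. The Benjamini-Yekutieli adjustment ended the call of Itga9 (adjusted p = 0.0634) and that of Itga11 (adjusted p = 0.301).

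Of the 7 beta chains 1 was higher and 0 lower in the authors' deposited table, close to the share of all genes for the higher calls, though 6 of 7 lay above 0. Itgb1, the common partner of most alpha chains, had the highest mean count of all 35 genes, 15823, and stood at 0.33 ± 0.16 in the authors' deposited table (1.26-fold, interval 1.02 to 1.56). It was not called by DESeq2 (adjusted p = 0.0852). Itgb5, a partner of alpha-v, stood at 0.28 ± 0.18, Itgb8, another, at 0.45 ± 0.24, and Itgb3, the partner of alpha-v and of the platelet chain, at -0.44 ± 0.30 in the authors' deposited table. Itgb7, a lymphocyte chain, was at 0.57 ± 0.37 in the authors' deposited table. Itgb6, an epithelial chain, was at 0.54 ± 0.63 from a mean count of 3.75. Itgb4, the hemidesmosome chain that pairs with alpha-6, rose by 1.44 ± 0.40 in the authors' deposited table (2.72-fold, adjusted p = 0.00173 by DESeq2), from a mean count of 74.6.

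Alpha and beta chains were then set side by side by known pairs. None had both chains called, which follows from the calls already given and is no separate result. Itgb4 was the only beta chain called, and its partner Itga6 was not called. Of 20 such alpha and beta pairs, 11 joined an alpha chain that rose by a beta chain that was not called, 1 joined Itga9 to Itgb1, 1 joined the uncalled Itga6 to Itgb4, and 7 had neither chain called in the authors' deposited table. Many pairs share a chain, so the 20 are not independent. Itga6, the laminin receptor chain of spermatogonial stem cells, averaged 2762 counts and stood at 0.19 ± 0.18 in the authors' deposited table (adjusted p = 0.445 by DESeq2). The interval of Itgav, 0.76 to 1.36, lay above those of Itgb1 (0.03 to 0.64), Itgb3 (-1.03 to 0.14) and Itgb5 (-0.08 to 0.64). It overlapped those of Itgb8 (-0.02 to 0.92) and Itgb6. These differences between chains were not tested, since the table gives no covariance between genes.

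**Figure D2:**
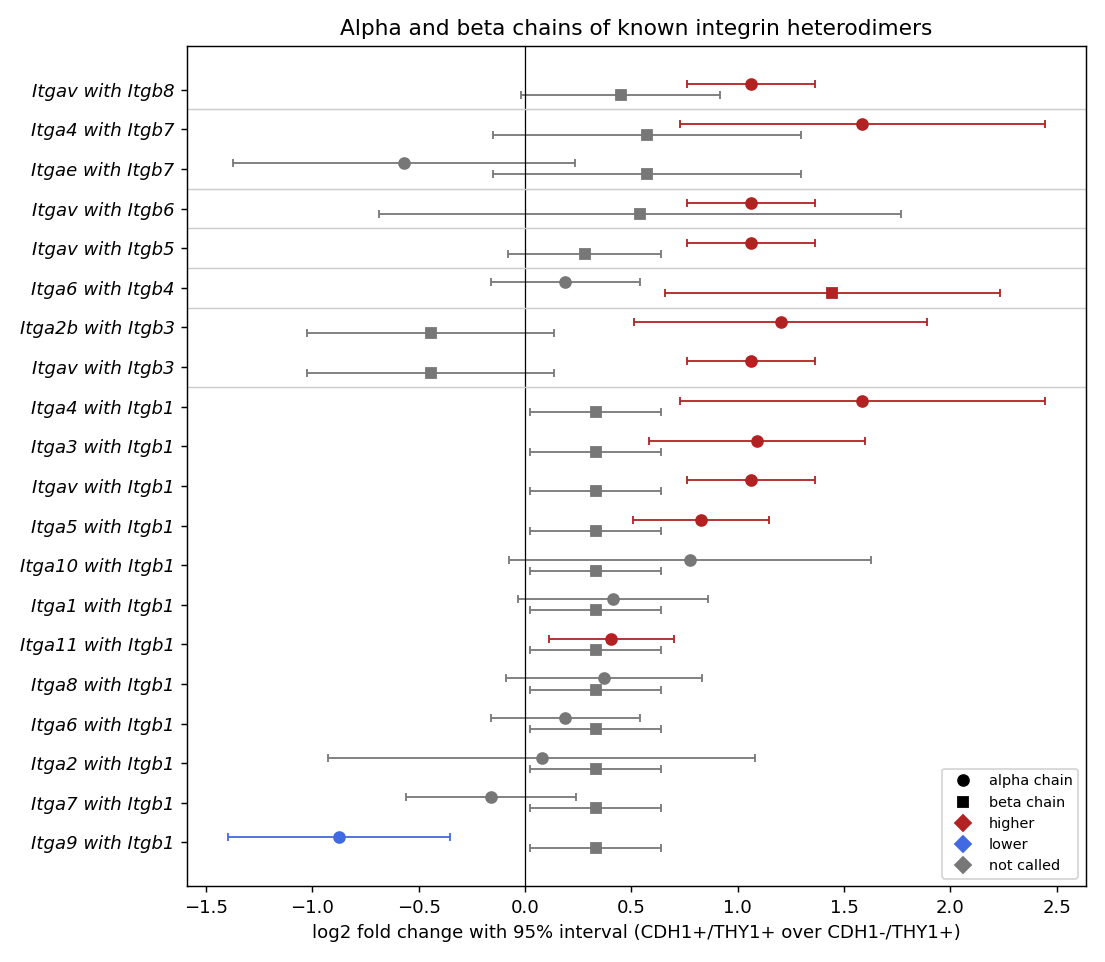
Log2 fold change (x axis, bars for the 95% interval) of the alpha chain (circle) and the beta chain (square) of 20 known integrin pairs, from the authors' deposited table, with pairs sharing a beta chain next to each other. None of the pairs has both chains called, since Itgb4 is the only beta chain called and its partner Itga6 is not called. Itgav lies at 1.06 beside partners between -0.44 and 0.54.

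Divided by the length of their merged exons, the mean counts put Itgb1 far above the other chains. It had 3877 counts per kb, 78.2% of the sum over the 7 beta chains, followed by Itgb5 with 949 and Itgb3 with 74.3. Among the 12 listed alpha chains Itga11 had 305 counts per kb, Itga5 215, Itgav 203 and Itga3 141, and these 4 made up most of the sum over the 12. Itga6, which is not one of the 12, had 306 counts per kb, close to Itga11. Itga8 and Itga9 followed with 70.9 and 69.6 counts per kb, and Itga2, with 1.80, was the lowest of the 12. The genes with the largest fold changes were not the abundant ones: Itga4, Itga2b and Itgb4 had 3.02, 8.91 and 10.6 counts per kb. These levels are means over both populations, with no spread between libraries, so neighbours such as Itga5 and Itgav cannot be ranked. With the longest transcript as length, Itgav had 309 counts per kb.

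**Figure D3:**
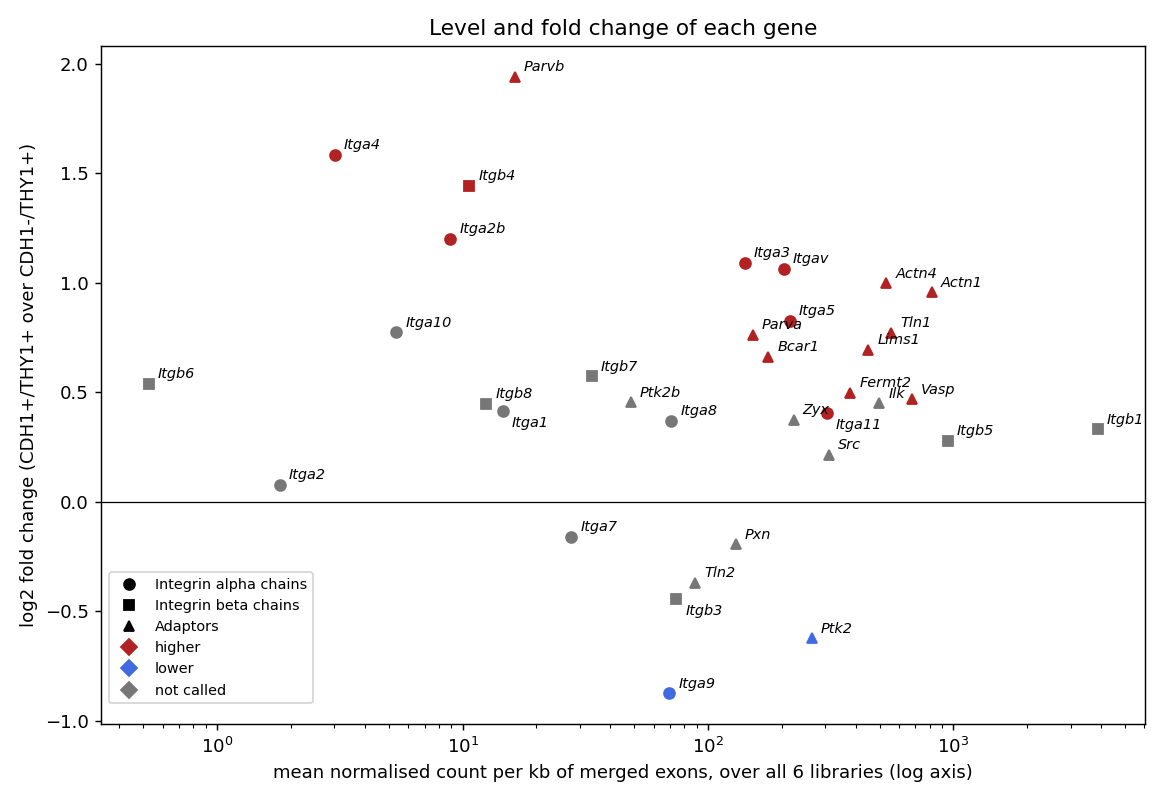
Mean normalised count per kb of merged exons over all 6 libraries (x axis, log scale) against the log2 fold change in the authors' deposited table (y axis); marker shapes are the families and colours the calls. The largest fold changes, Parvb at 1.94 and Itga4 at 1.59, belong to genes with 16.3 and 3.02 counts per kb, and Itgb1, with 3877, lies at 0.33.

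Of the 16 adaptors with a row, 9 were higher and 1 lower in the authors' deposited table, with a median log2 fold change of 0.48. Over all genes tested, 17.1% were higher and 16.4% lower, with a median of 0.01. The genes that act on the beta chain tail were Tln1, Tln2 and Fermt2. Tln1 on chromosome 4 (43531519 to 43562691), the widely expressed talin, had a mean count of 5449 and rose by 0.77 ± 0.15 in the authors' deposited table (1.71-fold, adjusted p = 4.69e-06 by DESeq2). Its paralogue Tln2 was at -0.37 ± 0.19 in the authors' deposited table, short of the DESeq2 threshold (adjusted p = 0.112). Tln1 had 556 counts per kb and Tln2 88.6. Fermt2, the gene of kindlin-2, rose by less, 0.50 ± 0.12 (adjusted p = 0.000402 by DESeq2), in the authors' deposited table.

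Of the complex of ILK, PINCH and parvin, 3 of 4 genes were called higher, against 17.1% of all genes. Parvb on chromosome 15 (84232043 to 84315688), the gene of beta-parvin, had the largest fold change of the 35 genes in the authors' deposited table, 1.94 ± 0.35 (3.84-fold, interval 2.39 to 6.18, adjusted p = 4.54e-07 by DESeq2). Its mean count was 72.1, against 1549 for its paralogue Parva, which rose by 0.76 ± 0.18 in the authors' deposited table (1.70-fold, adjusted p = 0.000236 by DESeq2). Lims1, the gene of PINCH-1, rose by 0.69 ± 0.12 (1.62-fold, adjusted p = 1.45e-07 by DESeq2) in the authors' deposited table, and its standard error ranked above only 3.0% of genes of like mean count. Ilk itself was at 0.45 ± 0.19 in the authors' deposited table and just missed the threshold (adjusted p = 0.054 by DESeq2). The exons of Taf10, on the opposite strand, cover 76.7% of the Ilk exons, and although the kit marks strand, whether the counting used it is not given, so the Ilk value is uncertain. In all, 12 of the 35 genes had exons that overlap those of another gene.

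The signalling adaptors around FAK did not move together. Ptk2 on chromosome 15 (73205102 to 73423280), the gene of FAK, had a mean count of 3131 and fell by 0.62 ± 0.16 in the authors' deposited table (1.54-fold lower, adjusted p = 0.000494 by DESeq2). Bcar1, which encodes p130Cas, a scaffold that FAK and SRC phosphorylate, rose by 0.66 ± 0.17 in the authors' deposited table (1.58-fold, adjusted p = 0.000475 by DESeq2). The FAK-related kinase gene Ptk2b was at 0.46 ± 0.30, the paxillin gene Pxn at -0.19 ± 0.14 and the kinase gene Src at 0.22 ± 0.13 in the authors' deposited table, without calls. The interval of Pxn was -0.46 to 0.08 and that of Src -0.04 to 0.47, so changes of 2-fold lie outside both. Of the 17 genes not called, 11 had intervals within 2-fold in either direction.

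The actin-linked adaptors were called higher in 3 of 4 cases, against 17.1% of all genes. Actn4 and Actn1, whose non-muscle alpha-actinins crosslink actin filaments at adhesions, averaged 3268 and 4505 counts and rose by 1.00 ± 0.16 and 0.96 ± 0.16 in the authors' deposited table (2.0-fold and 1.94-fold, adjusted p = 1.1e-08 and 3.9e-08 by DESeq2). Vasp, a promoter of actin filament growth, was at 0.47 ± 0.16 with an adjusted p of 0.0127 by DESeq2 in the authors' deposited table. The Benjamini-Yekutieli adjustment ended that call (adjusted p = 0.17). Zyx, the gene of the tension-responsive protein zyxin, was at 0.38 ± 0.25 in the authors' deposited table, with no call from DESeq2 (adjusted p = 0.254). Its standard error ranked above 94.5% of genes of like mean count. The median rank over the 35 genes was 52.0%.

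Other genes of the adhesion pathway were taken from 8 lists. Together 153 of 160 had a row, and 65 were higher and 14 lower in the authors' deposited table, 43.3% and 9.33% of the 150 with an adjusted p-value. Over all genes the shares were 17.1% higher and 16.4% lower. Among 51 further adhesion proteins 25 were higher and 7 lower, with the migfilin gene Fblim1 at 1.85 ± 0.31, the Cas family gene Efs at 1.73 ± 0.27, Csrp1 at 1.16 ± 0.12 and the tensin gene Tns1 at 1.14 ± 0.29 in the authors' deposited table. Vcl, the gene of vinculin, which binds talin, was at 0.17 ± 0.17 in the authors' deposited table, with no call. Among 18 regulators of integrin activation and trafficking 4 were higher and 2 lower, 22.2% and 11.1%, near the shares of all genes. The higher ones included Tbc1d2 at 0.92 ± 0.36, Rapgef1 at 0.75 ± 0.13 and Dab2 at 0.73 ± 0.24 in the authors' deposited table. The lower ones were Ccm2 at -0.65 ± 0.13 and Rab11a at -0.44 ± 0.16.

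Integrin ligands were higher where they were called. Over all genes 17.1% were higher and 16.4% lower. Of 16 laminin and basement membrane genes with a row, 7 were higher and 0 lower in the authors' deposited table. The laminin chain gene Lama1 was at 1.62 ± 0.38, agrin (Agrn) at 1.58 ± 0.22 and perlecan (Hspg2) at 1.35 ± 0.18 in the authors' deposited table. Of 11 fibronectin-type and other ligands 5 were higher and 0 lower. The nephronectin gene Npnt, a ligand of the alpha-8 chain, was at 1.69 ± 0.35, osteopontin (Spp1), a ligand of alpha-v pairs, at 1.51 ± 0.34, and fibronectin (Fn1) at 0.72 ± 0.14 in the authors' deposited table. Of 8 collagen genes 1, Col5a1, was called higher (0.61 ± 0.21 in the authors' deposited table), 12.5% of the list and below the share of all genes. All of these collagen genes but Col6a3 are also in the list of fibroblast markers described below, as is Postn of the other ligands, so these lists are not separate observations. The list median was 0.65, and the standard errors of collagen genes ranked at a median of 97.0% among genes of like mean count. Of 16 tetraspanins and other lateral partners 8 were higher and 1 lower: Cav1 stood at 1.58 ± 0.58, Plaur at 1.37 ± 0.31, Cd44 at 1.14 ± 0.23 and the syndecan gene Sdc4 at -1.11 ± 0.18 in the authors' deposited table. Of 9 further integrin chains and relatives, 7 had a row and 0 were called by DESeq2, with 0 at an unadjusted p under 0.05.

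**Figure D4:**
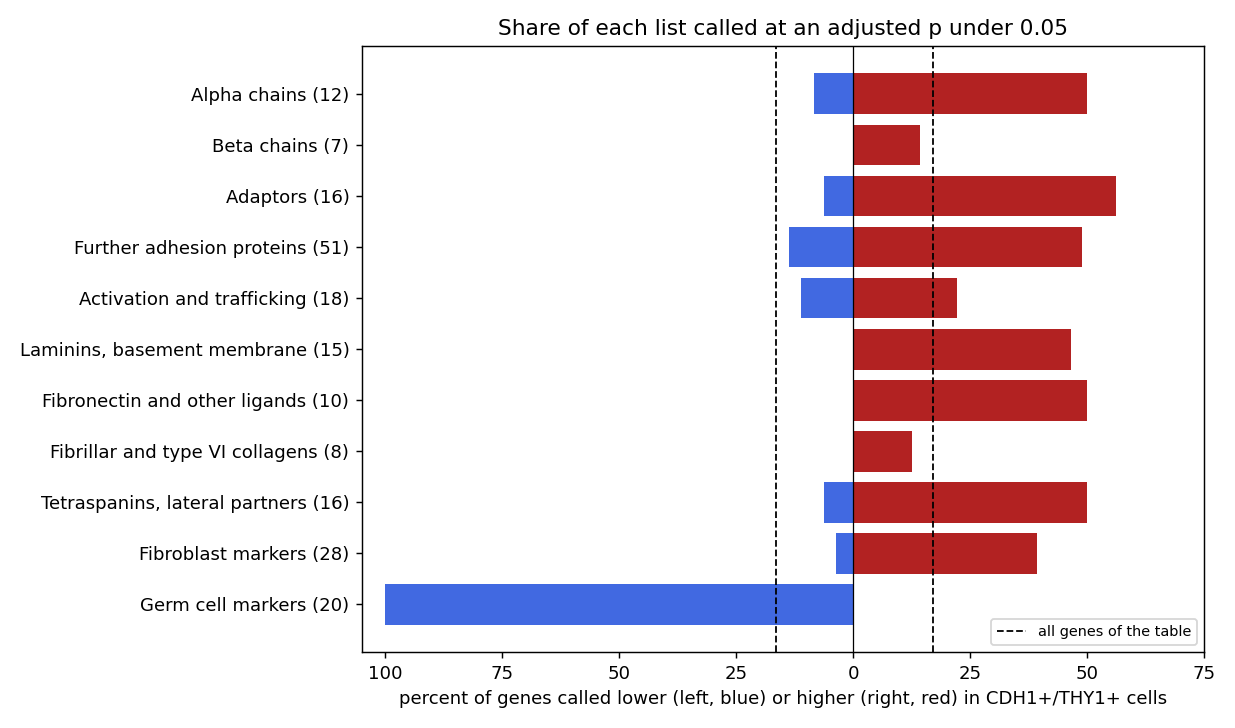
Percent of each list shown called lower (left) or higher (right) in CDH1+/THY1+ cells at an adjusted p under 0.05, with the number of genes that have an adjusted p-value in brackets; dashed lines mark the shares over all 19211 genes, 16.4% lower and 17.1% higher. Alpha chains and adaptors reach 50.0% and 56.2% higher, beta chains 14.3%, and the germ cell markers are 100% lower. The lists were chosen with earlier results of these data known. All of the collagen genes but Col6a3 are also among the fibroblast markers, so these bars are not separate observations.

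Some or all of the markers of each of 3 cell types were called in the same comparison. The marker lists were chosen with earlier results of these data known, so the shares called are not independent findings. Over all genes 17.1% were higher and 16.4% lower. Of 28 fibroblast markers, Thy1 among them, 11 were higher and 1, Fbln1 at -0.72 ± 0.18, lower in the authors' deposited table. The other 16 were not called and ranged from -0.20 ± 0.27 for Fap to 1.49 ± 0.63 for Pdgfra in the authors' deposited table. Thy1, the gene of the surface protein for which all samples were positive, was one of those called higher, at 0.48 ± 0.18. The median log2 fold change of the fibroblast markers was 0.65. Their standard errors ranked at a median of 92.8% among genes of like mean count. S100a4 stood at 1.43 ± 0.57, Fbln2 at 1.18 ± 0.26, Mfap5 at 0.99 ± 0.32 and the vimentin gene Vim at 0.95 ± 0.26 in the authors' deposited table. None of the 28 was at 0: the lowest mean count was 81.4 and the highest, of Col3a1, 89729. Of 20 germ cell markers 20 were lower, with a median of -1.70, among them Tdrd1, Tdrd9, Piwil2 and Mov10l1 at -2.22, -2.01, -1.88 and -1.84 in the authors' deposited table. Of 12 leukocyte and platelet markers 6 had a row and 4 were higher, 3 of them with mean counts under 14; Cd68 was at 1.65 ± 0.33, and the platelet genes Pf4 and Ppbp, at 1.88 ± 0.64 and 1.68 ± 0.63, averaged only 4.30 and 5.11 counts per the authors' deposited table. These shifts stand beside all of the integrin and adaptor changes, those of widely expressed genes such as Itgav, Itga5, Tln1 and Actn1 included. The summed level of a marker list in each population cannot be had from the table, and the part of these cell types in the integrin and adaptor changes was not tested.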

How the data were processed

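RNA of 6 samples was sequenced, 3 in each of 2 populations. Trimming (Trimmomatic 0.32), alignment (TopHat2 2.1.1) to GRCm38.p4, counting with featureCounts (Subread 1.5.0-p3) and testing in DESeq2 1.12.3 (R 3.3.1) are named in, or follow from the tools named in, the submitters' processing notes; annotation, strand setting and model formula are not given in the sources used here. The authors deposited 1 table of their comparison. Its mean normalised count is a signal (reads over size factors, averaged over all libraries), its fold change and standard error are log2 values, its Wald statistic is a score, and its p-value and adjusted p-value are deposited per gene. Depth per library is unknown, and the spread between libraries enters only through the authors' standard errors. The labels name 3 cultures and say no more on how far they are independent, so the p-values rest on these samples only. Each culture gave 1 sample to each population, and whether the authors' model paired them is not known.

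Symbols, positions and exons came from GENCODE M21, a GRCm38 annotation, joined by Ensembl identifier with the version dropped (22317 of 22432 rows). Genes with an adjusted p under 0.05, adjusted by the authors over all genes, were called; no model was refitted. Adjustments were rerun in Python 3.11.15 (numpy 2.4.6) and tested on simulated data. Standard errors were ranked among the 200 rows of nearest mean count. Motifs were searched in the 250 bases before RefSeq starts (GRCm38.p6). Of each list of other genes, the called genes with the largest fold changes were named, up to 4, if their mean count reached 100. Itga6, Vcl, Thy1 and the uncalled or rarer genes named beside them were chosen after their values were seen. So were the known pairs and the genes of the closing observation. The members and lists were chosen with earlier results of these data known. Alternatives were an adjusted p under 0.01, a Benjamini-Yekutieli or Benjamini-Hochberg adjustment over all rows, a mean count minimum of 50, a 1.5-fold minimum, centring, another length, and, added after seeing the data, leaving out genes with large standard errors. Of the lists of other genes, 1 list and 1 gene of another are not reported here by name.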

Additional observations from a re-analysis of the deposited data

How the results depend on the processing

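The count of 16 higher genes stayed between 13 and 16 under every alternative run. Under the Benjamini-Yekutieli adjustment, Itga9, Itga11 and Vasp lost their calls, which left 1 lower gene in all and 0 lower alpha chains, and the other pathway genes went from 65 to 43 higher and from 14 to 9 lower; with a 1.5-fold minimum 8 of those 14 remained. With a mean count of at least 50, Itga2b and Itga4 were not counted, and the median of Itga4 and Itga9 turned from 0.36 to -0.87, since Itga9 alone was left. Leaving out genes with standard errors above the 90th percentile for their mean count removed the call of Itga3. Centring changed no direction. The longest transcript in place of merged exons moved 12 of 35 levels per kb by over 1.5 times. No paired analysis was possible because the table holds no value per library, and for the same reason no library was left out. Genes with few reads (8 of 35 had a mean count under 100) limit what could be resolved.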

Other observations

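The 7 genes called lower among the 51 further adhesion proteins were picked out after their values were seen. They make up 13.7% of that list, below the 16.4% called lower over all genes. They were Arhgef7 (the exchange factor beta-PIX) at -0.81 ± 0.14, the SRC family kinase gene Fyn at -0.78 ± 0.16, Csk, whose kinase restrains that family, at -0.61 ± 0.15, the adaptor gene Nck1 at -0.60 ± 0.14, Git1, whose scaffold protein binds beta-PIX, at -0.42 ± 0.13, the adaptor gene Nck2 at -0.37 ± 0.15 and the adaptor gene Crkl at -0.36 ± 0.15 in the authors' deposited table. Their relatives in the lists were mixed. Yes1, another SRC family kinase gene, and Crk, the paralogue of Crkl, were higher, at 0.65 ± 0.16 and 0.42 ± 0.12 in the authors' deposited table. Git2, Arhgef6 and Src, relatives of Git1, Arhgef7 and Fyn, were at -0.31 ± 0.14, 0.29 ± 0.26 and 0.22 ± 0.13 in the authors' deposited table and had no call. Whether relatives differ from each other was not tested.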
